A study of Mus musculus with 5 samples.

Results

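The genes described here encode the pumps, release channels, sensors and entry channels of the calcium store of the endoplasmic reticulum (ER). They were chosen by name as Atp2a2, Atp2a3, Itpr1, Itpr2, Itpr3, Stim1, Stim2, Orai1 and Orai3, which make 9 of the 53927 genes in the deposited table. Every one of the 9 had a single row in the table. All 9 also passed the filter on low values, at least 0.5 CPM (read counts scaled to the size of the library) in at least 2 libraries, which left 14884 genes for testing.

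RNA came from primary nephron progenitor cells, the embryonic kidney cells from which nephrons form, passaged 1 time in culture. The KO group holds 3 libraries of cells from Dis3l2-/- embryos and the WT group 2 libraries of cells from Dis3l2+/+ embryos, both on the C57BL/6J strain. Dis3l2 encodes an exoribonuclease that degrades RNAs tailed with uridines. The labels give neither the removed region of Dis3l2 nor the embryonic age, nor whether each library came from its own embryo. The spread that p-values measure is therefore only that between libraries and may be technical.

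The ER store works as a cycle. Pumps of the SERCA type load calcium into the ER lumen, and inositol trisphosphate (IP3) receptors release it into the cytosol when phospholipase C makes IP3. STIM proteins sense the falling level in the lumen and open Orai channels of the plasma membrane, through which calcium enters to refill the store. The comparison of KO with WT asks whether messages for this machinery differ without Dis3l2, a nuclease whose loss in mouse embryonic stem cells has been linked to altered translation at the ER and altered calcium handling.

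The depth of the libraries, read from the steps of their low values, was 19.61 to 49.25 M assigned reads in KO and 22.34 to 28.26 M in WT. Dis3l2, the targeted gene, stood at 6.50, 4.93 and 4.70 CPM in KO replicates 1, 2 and 3, against 16.04 and 12.18 CPM in WT replicates 1 and 2, without overlap (limma, a moderated linear model over all genes, log2 fold change -1.24, standard error (SE) 0.21, adjusted p = 0.9545 with Benjamini-Hochberg adjustment). Dis3l2 has an FDR of 0.00855 in the authors' deposited table. Mitochondrial ribosomal RNA took 31.6% to 32.9% of the summed values in KO and 38.9% to 40.7% in WT. Xist, made from an inactive X chromosome, was at most 0.93 CPM in KO replicate 3 and WT replicate 1 and at least 765 CPM in the other 3 libraries. Summed nephron progenitor markers (Six2, Cited1 and 7 others, none under 3 reads in every library) lay between 742 and 884 CPM in KO and between 728 and 911 CPM in WT, although Pax2, a defining marker, was at most 0.66 CPM. These sums rest largely on Itga8 and Eya1. Osr1 was 41.5, 64.6 and 27.3 CPM in KO and 22.3 and 19.5 CPM in WT, without overlap. It was 1 of 8 tested progenitor markers to lie above WT in this way, beside 7.85% of all genes tested, and 0 lay below. Cited1 was 17.1, 4.74 and 2.73 CPM in KO and 15.2 and 1.40 CPM in WT. Of 8 tested progenitor markers, 5 were above 0, with a median of 0.07. Among 9 lists of markers, 6 of 6 smooth muscle genes had a positive log2 fold change, with sums of 529 to 1873 CPM in KO and 452 to 954 CPM in WT. Leukocyte markers summed to 5.38 to 5.82 CPM in KO and 7.93 to 8.47 CPM in WT, with Ptprc at or under 0.11 CPM in every library. Of 3 tested leukocyte markers, 2 were lower in KO without overlap, beside 6.98% of all genes tested. They were Cd68 (1.79 to 2.47 CPM in KO, 3.15 and 2.88 CPM in WT) and Mrc1 (1.37 to 2.43 CPM in KO, 3.85 and 2.95 CPM in WT). Csf1r was above 0 with overlap (0.79 to 1.74 CPM in KO, 0.65 and 1.23 CPM in WT). Skeletal muscle markers summed to 5.52 to 6.63 CPM in KO and 8.41 to 11.45 CPM in WT through Myl1 (2.18 to 3.34 CPM in KO, 5.57 and 6.21 CPM in WT), with Myod1 and Ckm under 3 reads in every library. Of 3 tested skeletal muscle markers, 2 were above 0, and the median log2 fold change was 0.01. Of these 3, 1 (Myl1) lay below WT without overlap. The sums of the other 5 lists (renal stroma, erythroid cells, endothelium, neurons and glia, ureteric epithelium) overlapped between genotypes, but some single genes did not. Of 5 tested stroma markers, Ntn1 was above WT (17.2 to 48.6 CPM in KO, 8.81 and 13.7 CPM in WT). Pdgfra was below WT (2.15 to 3.53 CPM in KO, 4.27 and 6.28 CPM in WT). Also below WT were 1 of 4 tested endothelium markers, Tek, and 1 of 3 for neurons and glia. The latter was Snap25 (6.82 to 18.9 CPM in KO, 19.9 and 19.3 CPM in WT). For neurons and glia the sums were 24.98 to 39.96 CPM in KO and 39.57 to 50.23 CPM in WT, and 3 of 3 tested markers were below 0, with a median of -0.34 and with Elavl3 and Sox10 under 3 reads in every library. The part of these markers in the results below was not tested.

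Among the store genes the libraries of the genotypes did not overlap for a pair of IP3 receptor genes, Itpr3 with higher and Itpr1 with lower values in KO, and neither passed the test. None of the 9 genes passed the threshold of 0.05 after Benjamini-Hochberg adjustment (limma), where 0.00672% of all genes tested were called. At an unadjusted p under 0.05 there was 1 of the 9, Itpr3, which was higher in KO, against 2.77% of all genes (1.5% higher and 1.27% lower). Groups did not overlap for 2 of the 9, Itpr3 above and Itpr1 below WT, where 14.8% of all genes did not overlap (7.85% above and 6.98% below), so this count is little different from the background. Log2 fold changes, which are on the log2(CPM + 1) scale and understate differences of low genes, were above 0 for 5 of the 9, against 52.9% of all genes, and ran from -0.30 to 0.59, with a median of 0.00 beside 0.01 over all genes. A size of 0.5 or more on this scale was met by 1 of the 9, Itpr3, and by 4.49% of all genes. In the authors' deposited table no store gene had an FDR under 0.05, where 0.0315% of its 53927 genes did. At a p under 0.05 there was 1 of the 9, again Itpr3, where 2.22% of the 53927 were. These 2 shares include 25172 genes at 0 in every library, so they understate the background for expressed genes. The limma shares above are over genes that passed the filter, so the backgrounds are not alike. In such bulk samples fewer cells of a type and less RNA per cell cannot be told apart.

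**Figure D1:**
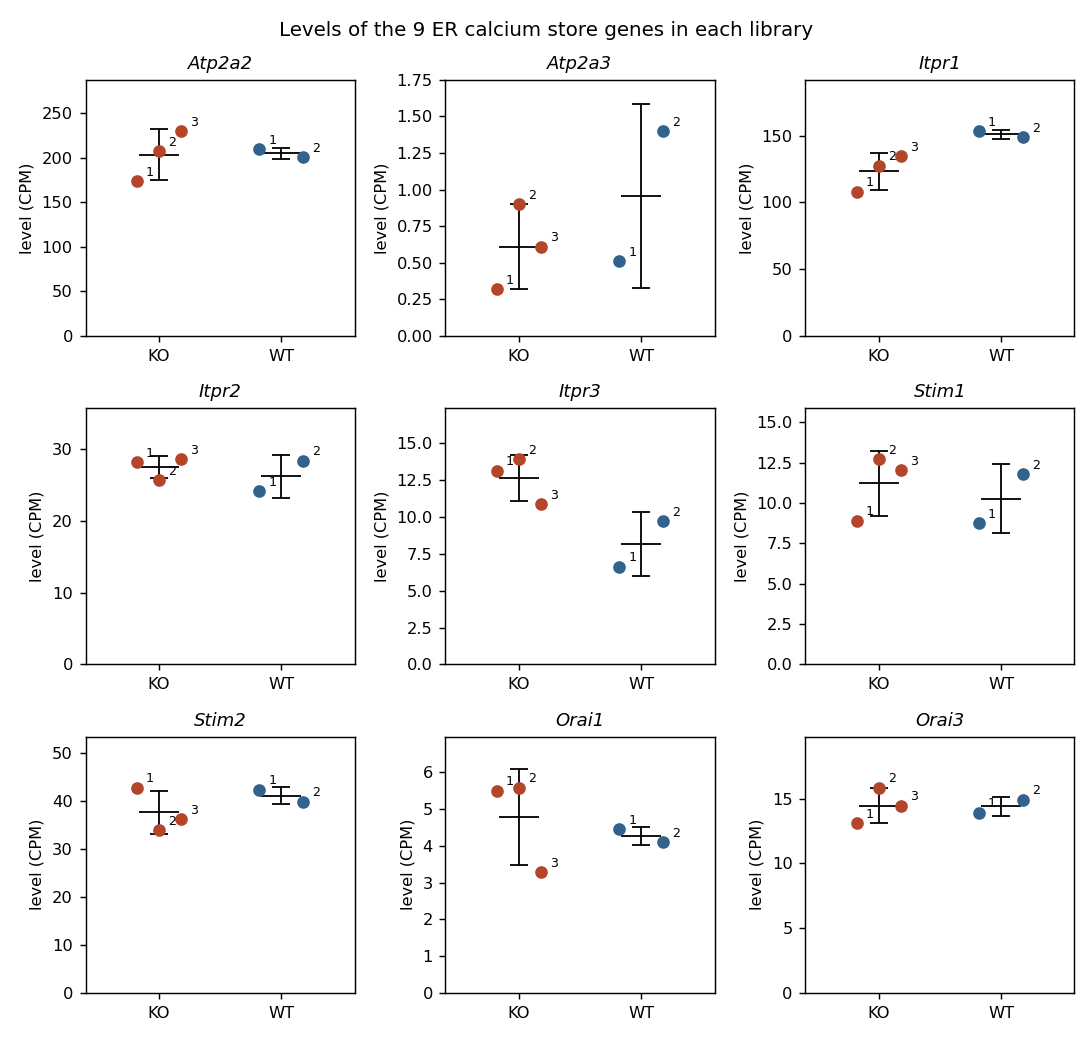
Level in CPM of each store gene in the KO (left, red) and WT (right, blue) libraries, numbered by replicate, with the mean and SD of each group as black bars. Groups lie apart for Itpr1 (KO 108 to 134 CPM, WT 149 and 153 CPM) and Itpr3 (KO 10.9 to 13.9 CPM, WT 6.63 and 9.69 CPM) and overlap for the other 7 genes.

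The pumps were led by Atp2a2 (ENSMUSG00000029467.15, GRCm38 chromosome 5, 122453513 to 122502225, minus strand), which encodes SERCA2, the pump found in most tissues. Atp2a2 stood at 174, 207 and 230 CPM in KO replicates 1, 2 and 3, against 210 and 201 CPM in WT replicates 1 and 2. Both the lowest and the highest of these values were KO libraries, with WT between them. The means were 203.7 ± 28.5 CPM in KO and 205.3 ± 6.07 CPM in WT (SD, n = 3 and 2), which is -0.02 as a log2 fold change (SE 0.16, limma adjusted p = 1). The 95% interval of the fold change ran from 0.762 to 1.28.

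Atp2a3 (ENSMUSG00000020788.15, chromosome 11, 72961169 to 72993044, plus strand) encodes SERCA3, a pump best known from blood and epithelial cells. It was close to the limit of these libraries, with 0.32, 0.90 and 0.61 CPM in KO, which rest on 15, 29 and 13 reads, and 0.51 and 1.40 CPM in WT, on 11 and 40 reads. The highest and one of the lower values were both WT libraries, so the groups overlapped. The log2 fold change of -0.26 (SE 0.25, limma adjusted p = 1) took its sign from WT replicate 2, since it was 0.08 without that library. Its size depends on the pseudocount, being -0.35 with 0.5 added in place of 1, and the authors' deposited table gives -0.68 (p of 0.277, FDR of 1). Atp2a1, the SERCA1 gene of fast skeletal muscle, had 4, 5 and 4 reads in KO and 0 and 9 reads in WT, too few for a comparison.

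Among release channels, Itpr1 (ENSMUSG00000030102.11, chromosome 6, 108213096 to 108551109, plus strand) encodes IP3 receptor type 1, known as the main type of neurons and smooth muscle. Itpr1 had 108, 127 and 134 CPM in KO replicates 1, 2 and 3, against 153 and 149 CPM in WT replicates 1 and 2. All KO values were thus below the WT values. The means were 123.2 ± 13.7 CPM in KO and 151.1 ± 3.32 CPM in WT (SD, n = 3 and 2), a fold change of 0.814 with a 95% interval from 0.645 to 1.03 (log2 fold change -0.30, SE 0.14, unadjusted p = 0.0735, limma adjusted p = 1). KO replicate 1 was the lowest, and without it the log2 fold change was -0.21.

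Itpr3 (ENSMUSG00000042644.8, chromosome 17, 27057304 to 27122223, plus strand) encodes IP3 receptor type 3, known from epithelial and secretory cells. Itpr3 had 13.1, 13.9 and 10.9 CPM in KO, from 615, 445 and 231 reads, against 6.63 and 9.69 CPM in WT, from 143 and 276 reads. The KO values were all above the WT values, the nearest pair being KO replicate 3 and WT replicate 2. Its log2 fold change was 0.59, with a 95% interval from 0.09 to 1.08, which as a fold is 1.06 to 2.12 (SE 0.21, unadjusted p = 0.0270, limma adjusted p = 1), and it ranked 230 by p among all genes tested. The size rested on WT replicate 1: without it the log2 fold change was 0.34 (unadjusted p = 0.221, limma), and without WT replicate 2 it was 0.83. Itpr3 has 0.63 as its log2 fold change in the authors' deposited table (p of 0.0307, FDR of 1).

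Itpr2 (ENSMUSG00000030287.15, chromosome 6, 146108299 to 146502223, minus strand), the type 2 receptor known from heart and liver, was nearly even. It had 28.2, 25.7 and 28.6 CPM in KO and 24.2 and 28.4 CPM in WT, with overlap, and a log2 fold change of 0.07, whose 95% interval as a fold ran from 0.829 to 1.32 (adjusted p = 1, limma). Across the 5 libraries its highest value was 1.18 times its lowest, against 1.42 times for Itpr1 and 2.09 times for Itpr3.

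Libraries differed in their Xist level, so the receptors were also compared within libraries of high and of low Xist. This comparison was chosen after the data had been seen and is too small for a test. Where Xist was above 10 CPM, Itpr3 averaged 13.5 CPM in the 2 KO libraries and was 9.69 CPM in the WT library. Where it was at most 10 CPM, Itpr3 was 10.9 CPM in the KO library and 6.63 CPM in the WT library. For Itpr1 the same pairs were 118 CPM in KO and 149 CPM in WT with high Xist, and 134 CPM in KO and 153 CPM in WT with low Xist. Because neither gene overlapped between genotypes, any such split had to give these directions. The part of the Xist level, or of sex, in the result was not tested. With the Xist level as a term in the fit the log2 fold change was 0.53 for Itpr3 and -0.28 for Itpr1.

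The 5 ratios between members of one family within a library depend on the scaling of libraries only through the pseudocount. The log2 ratio of Itpr3 over Itpr1 was -2.95, -3.11 and -3.51 in KO, against -4.34 and -3.81 in WT. No KO value fell within the WT range. The difference of means was 0.88, a ratio 1.85 times that of WT (p = 0.1, exact two-sided permutation test, the smallest p that 3 against 2 libraries can give, 0.25 after adjustment over the 5 ratios compared). Since all KO values of Itpr3 were above and all of Itpr1 below WT, this separation and its p were fixed by the values of the genes and add nothing to them. The difference ran from 0.62 without WT replicate 1 to 1.15 without WT replicate 2. The ratio of Itpr2 over Itpr1 also did not overlap, at -1.90, -2.26 and -2.19 in KO and -2.62 and -2.35 in WT (difference 0.36, exact permutation p = 0.1, adjusted 0.25). It was 0.23 without WT replicate 1. Both ratios share Itpr1, so they are not separate evidence.

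Taken per kb of annotated exon, Itpr1 made up 63.7%, 68.0% and 70.1% of the summed IP3 receptor level in KO and 78.0% and 73.1% in WT. Itpr3 made up 15.7%, 15.1% and 11.5% in KO and 6.84% and 9.67% in WT. The summed receptor level was 9.99 ± 0.645 CPM per kb in KO and 10.9 ± 0.261 CPM per kb in WT (SD, n = 3 and 2). By library the sums were 9.255, 10.23 and 10.47 CPM per kb in KO and 10.74 and 11.11 CPM per kb in WT, without overlap. Itpr1, the largest part of each sum, was itself lower in every KO library. These shares depend on the exon lengths used, while their difference between genotypes rests on the same values as the ratios and is given as a description.

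**Figure D2:**
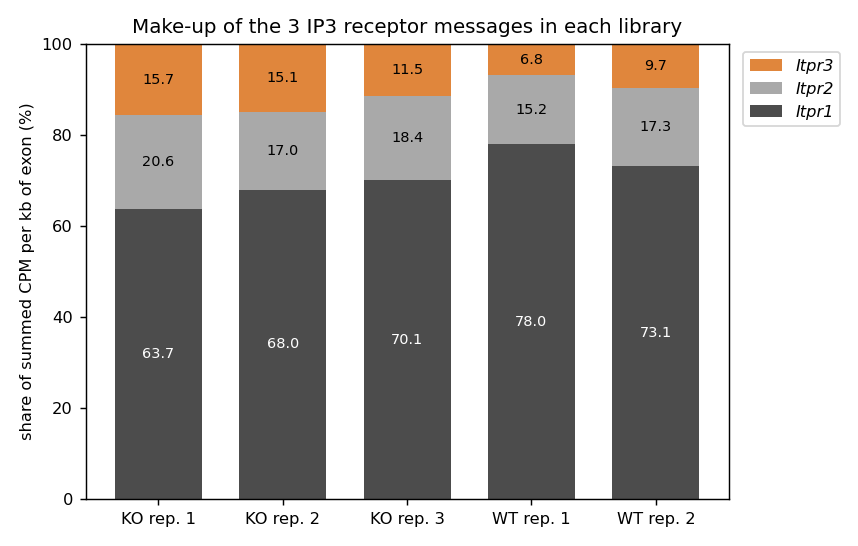
Share in percent of each IP3 receptor gene in the summed CPM per kb of exon of the 3 genes, one bar per library, KO libraries left of WT libraries. Itpr1 is the largest part in every library, and the Itpr3 part is 11.5% to 15.7% in KO and 6.84% to 9.67% in WT.

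Promoter sequence is shown for Itpr3 and Itpr2, the only IP3 receptor genes for which one was at hand. Of the 9 genes, 7 matched the RefSeq promoter table (GRCm38.p6), without Atp2a2 and Itpr1. Each line gives the 250 bases before the annotated start, 5′ to 3′ on the gene's strand, with capitals marking the GC box GGGCGG and the CCAAT box CCAAT on either strand. The Itpr3 window is chr17:27057054-27057303 on the plus strand and the Itpr2 window chr6:146502224-146502473 on the minus strand.
Itpr3: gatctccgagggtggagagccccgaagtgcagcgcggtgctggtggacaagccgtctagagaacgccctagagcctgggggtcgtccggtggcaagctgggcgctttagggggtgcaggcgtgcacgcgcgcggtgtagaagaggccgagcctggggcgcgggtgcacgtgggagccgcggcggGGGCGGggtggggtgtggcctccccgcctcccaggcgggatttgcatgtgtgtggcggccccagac
Itpr2: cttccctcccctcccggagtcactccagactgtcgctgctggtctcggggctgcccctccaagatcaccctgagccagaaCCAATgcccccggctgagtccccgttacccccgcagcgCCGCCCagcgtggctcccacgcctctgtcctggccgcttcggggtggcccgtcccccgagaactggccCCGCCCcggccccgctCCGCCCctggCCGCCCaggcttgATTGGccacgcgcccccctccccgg
Both windows are rich in G and C, at 72.0% for Itpr3 and 74.4% for Itpr2, against a median of 52.4% over 32851 promoters. Itpr3 has 1 GC box and no CCAAT, while Itpr2 has 4 GC boxes and 2 CCAAT matches. A GC box was present in all 7 store gene promoters and in 32.7% of all promoters. The 7 windows held from 57.2% (Orai3) to 78.4% (Stim1) G and C, all above that median, and the part of this in the matches was not tested. The NFAT core GGAAA was found for Orai3 only, and in 55.6% of all promoters. The cAMP response element core TGACG was found for Stim1 and Orai1 only, and in 17.8% of all promoters. None of the 7 held the letters TATAAA, found in 12.4% of all promoters. The ER stress element was searched on both strands (a match to it would also count as a CCAAT match) and was in none of the 7 and in 0.1% of all. A match is a description of letters and not a bound site.

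The ryanodine receptors, the other family of ER release channels, best known from muscle and neurons, were low. Ryr3 had 3.01, 2.81 and 4.23 CPM in KO and 4.54 and 4.00 CPM in WT, with overlap (log2 fold change -0.29, SE 0.20, limma adjusted p = 1). Exons of Ryr3 overlap those of Aven on the other strand over 4.8% of their length, and the sources used here do not give the strand setting of the counting. Ryr2 had 1.62, 1.81 and 1.18 CPM in KO and 0.74 and 1.33 CPM in WT, also with overlap. Ryr1 stayed under 0.80 CPM in every library. Per kb of exon, Ryr3 averaged 0.196 CPM per kb over the 5 libraries, below the 1.20 CPM per kb of Itpr3, the lowest of the IP3 receptors.

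The STIM sensors did not separate by genotype. Stim2 (ENSMUSG00000039156.19, chromosome 5, 53998499 to 54121057, plus strand), which answers to small falls in the store and sets resting entry, had 42.7, 33.9 and 36.1 CPM in KO and 42.3 and 39.8 CPM in WT. KO replicate 1 was the highest of all and the other KO libraries were the lowest. Its fold change was 0.914 with a 95% interval from 0.718 to 1.16 (adjusted p = 1, limma). Stim1 (ENSMUSG00000030987.5, chromosome 7, 102267806 to 102437319, plus strand), which answers to stronger depletion, had 8.91, 12.7 and 12.0 CPM in KO and 8.76 and 11.8 CPM in WT. Replicate 1 was the lowest in each genotype, and the log2 fold change of 0.12 (SE 0.22, limma adjusted p = 1) became -0.08 without WT replicate 1. The log2 ratio of Stim2 over Stim1 differed by -0.25 (exact permutation p = 0.5).

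Of the entry channels, Orai3 (ENSMUSG00000043964.14, chromosome 7, 127769815 to 127775150, plus strand), a channel subunit found in mammals, had the smallest spread of log2 values among the 9 genes. Orai3 had 13.1, 15.8 and 14.5 CPM in KO and 13.9 and 14.9 CPM in WT, with WT inside the KO range. The SD of its log2 values over the 5 libraries was 0.096, where the median over 9864 genes with a mean of at least 5 CPM was 0.180. Its fold change was 1.00 with a 95% interval from 0.776 to 1.29 (adjusted p = 1, limma). Orai1 (ENSMUSG00000049686.14, chromosome 5, 123015074 to 123030456, plus strand) encodes the pore subunit of the calcium release-activated channel. Orai1 had 5.50, 5.58 and 3.29 CPM in KO and 4.45 and 4.11 CPM in WT. KO replicates 1 and 2 lay above WT and KO replicate 3 below, so the KO group spread over both sides (log2 fold change 0.11, SE 0.24, limma adjusted p = 1). The log2 fold change of Orai1 was 0.31 without KO replicate 3, the library with the fewest reads. It was 0.01 without KO replicate 1 and 0.00 without KO replicate 2. Orai2, the third gene of the family, had 5.09, 6.18 and 5.55 CPM in KO and 6.17 and 6.50 CPM in WT, a log2 fold change of -0.15. The log2 ratio of Orai3 over Orai1 differed by -0.10 (exact permutation p = 0.8), and that of Atp2a3 over Atp2a2 by -0.24 (exact permutation p = 0.6).

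**Figure D3:**
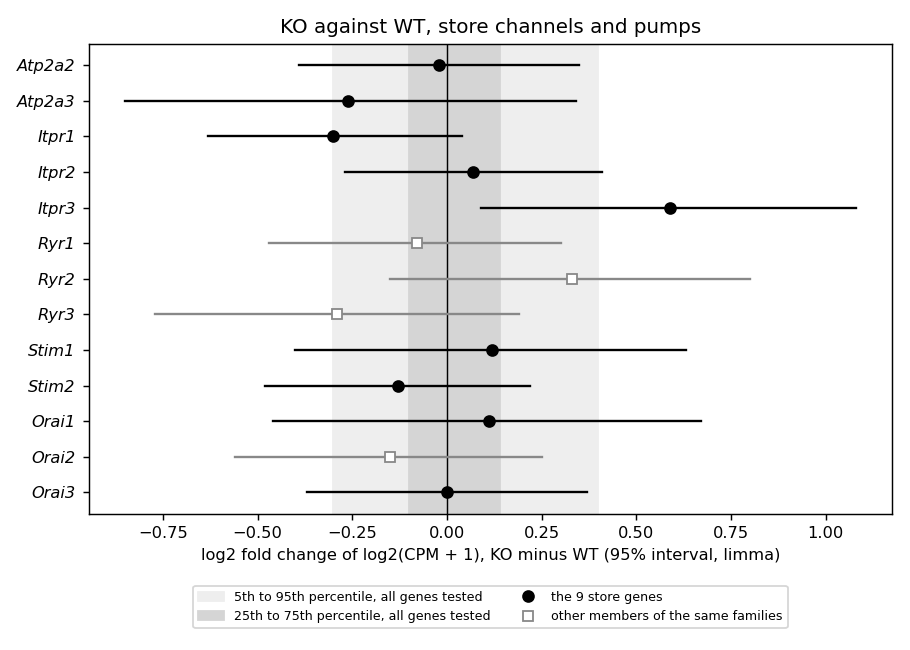
Log2 fold change of KO over WT on the log2(CPM + 1) scale with 95% intervals from limma, for the 9 store genes (black circles) and other members of their families (grey squares), with percentiles of all genes tested as grey bands. Only the interval of Itpr3, from 0.09 to 1.08, lies wholly on one side of 0 among the genes drawn.

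Levels of the 9 genes were set in order per kb of annotated exon, as means over the 5 libraries. Atp2a2 came first with 33.6 CPM per kb, and its range over libraries was separate from that of every other gene. Stim2 (7.59 CPM per kb), Itpr1 (7.34) and Orai3 (6.75) followed, with ranges that overlapped from each to the next. Orai1 (2.00) and Itpr2 (1.83) overlapped, as did Itpr3 (1.20) and Stim1 (1.04), and Atp2a3 was last with 0.142 CPM per kb. Within families, Stim2 made up 90.6%, 84.4% and 85.8% of the summed STIM level in KO and 90.7% and 87.2% in WT. Orai3 made up 71.9%, 75.3% and 82.5% of the Orai1 and Orai3 sum in KO and 77.0% and 79.6% in WT. Atp2a2 made up at least 99.2% of the SERCA2 and SERCA3 sum in every library.

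The members followed a few different courses over the libraries. Centred log2 values of Atp2a2 and Orai3 differed by a root mean square of 0.111, the closest of all pairs of members, and those of Itpr1 and Itpr3 by 0.499, the farthest. Over the 5 libraries and 9863 other genes with a mean of at least 5 CPM, the genes nearest to Itpr3 by this measure were Rrbp1 (0.070), Agpat1 (0.095) and Boc (0.099). Rrbp1, which encodes a ribosome-binding protein of the ER membrane, had 439, 504 and 371 CPM in KO and 241 and 311 CPM in WT. Nearest to Atp2a2 were Gk (0.010), Katnal1 (0.015) and Trim44 (0.018). With 5 libraries and so many genes, some genes lie close to any pattern.

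The genes around the store were described through 8 lists, none of which had a member past the adjusted threshold (limma). Genes named from each list are those with its smallest p, a choice that favours groups that do not overlap. Genes for proteins that bind calcium in the ER lumen stood highest. Of 15 tested genes, 14 had a positive log2 fold change, where 52.9% of all genes did. For 5 all KO values exceeded both WT values, where 7.85% of all genes did so, and the median was 0.27 beside 0.01 over all genes. The lists were chosen with earlier results of these data known, and genes of one list may vary together. These counts are therefore a description and not a test. Calr, which encodes calreticulin, a calcium-storing chaperone, had 601, 774 and 662 CPM in KO and 432 and 507 CPM in WT (log2 fold change 0.53, SE 0.18, unadjusted p = 0.0203, limma adjusted p = 1). P4hb, a protein disulfide isomerase gene, had 577, 665 and 599 CPM in KO and 428 and 499 CPM in WT. For Calr and P4hb the KO libraries were all above the WT libraries. Rcn3, the gene of a calcium-binding protein of the secretory pathway, had 170, 182 and 119 CPM in KO and 89.7 and 123 CPM in WT, with KO replicate 3 below WT replicate 2. These 3 were the members at an unadjusted p under 0.05, where 1.5% of all genes were higher at that level. Without WT replicate 1 none of the 3 kept it (Calr 0.41, P4hb 0.29 and Rcn3 0.33 on the log2 scale), and the list median was then 0.16. Without KO replicate 2 none kept it either (0.43, 0.35 and 0.43 in the same order), nor did P4hb without WT replicate 2 (0.51) or Rcn3 without KO replicate 1 (0.48). As with Itpr3, the WT library with the lower values was replicate 1 for all 3 genes.

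IP3 supply showed no common direction, with 6 of 12 tested genes above 0 and a median of 0.04. Plcg1, the phospholipase C that acts below receptor tyrosine kinases, had 84.4, 76.1 and 80.1 CPM in KO and 95.1 and 90.4 CPM in WT, a log2 fold change of -0.21. Inpp5a, a phosphatase gene whose product removes IP3, had 15.5, 15.9 and 15.1 CPM in KO and 13.0 and 13.4 CPM in WT (log2 fold change 0.21). Both had groups that did not overlap and neither reached an unadjusted p of 0.05 (0.130 and 0.174, limma). Of the 12 genes, 1 lay above WT and 2 below without overlap, beside 7.85% and 6.98% of all genes. Plce1, another phospholipase C gene, had a log2 fold change of -0.44 with overlapping groups, which was -0.19 without KO replicate 2 and -0.70 without KO replicate 1.

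Partners of IP3 receptors were above 0 for 11 of 16, with a median of 0.06. Erlin2, part of the complex that sends active receptors to degradation, had 49.3, 55.0 and 61.0 CPM in KO and 44.6 and 47.6 CPM in WT, without overlap. Calm2, a calmodulin gene, had 281, 270 and 288 CPM in KO and 250 and 235 CPM in WT, also without overlap. The unadjusted p was 0.122 for Erlin2 and 0.15 for Calm2 (limma). Of the 16 genes, 2 lay above WT and 1 below without overlap, beside 7.85% and 6.98% of all genes. Bok, a Bcl-2 family gene whose product binds these receptors, had a log2 fold change of 0.33 with overlap, which was 0.14 without WT replicate 1 and 0.53 without WT replicate 2.

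Among 8 tested genes of other store and entry channels, 3 were above 0, and the median was -0.12. Tmco1, a gene for an ER channel that leaks calcium from overfilled stores, had 67.5, 84.7 and 67.8 CPM in KO and 56.9 and 62.1 CPM in WT, without overlap. Trpc1, a plasma membrane cation channel gene, had 2.86, 3.06 and 3.29 CPM in KO and 4.45 and 3.72 CPM in WT. Every KO library of Trpc1 was below both WT libraries. The unadjusted p was 0.0949 for Tmco1 and 0.105 for Trpc1 (limma). Of the 8 genes, 1 lay above WT and 1 below without overlap, beside 7.85% and 6.98% of all genes. Of 7 regulators of pumps and entry, 5 were above 0, with a median of 0.07. Esyt1, a tether between ER and plasma membrane, spread widely, with 43.2, 99.1 and 78.5 CPM in KO and 33.2 and 59.2 CPM in WT. Mrln, a gene for a small SERCA inhibitor of skeletal muscle, had 0.32, 0.53 and 0.56 CPM in KO and 0.93 and 0.77 CPM in WT. Cracr2a, a calcium-binding regulator of Orai1, had a log2 fold change of -0.21 that was 0.09 without WT replicate 2.

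Calcium export and Golgi pumps were above 0 for 4 of 7 with a median of 0.06. Atp2b1, a plasma membrane pump gene, had 76.6, 71.9 and 87.2 CPM in KO and 90.3 and 81.5 CPM in WT. Atp2c1, the Golgi pump gene, had a log2 fold change of -0.13 and Slc24a3, a sodium-calcium exchanger gene, of 0.19, all 3 with overlap. Mitochondrial uptake genes were above 0 for 7 of 12 with a median of 0.06. Mcu, the pore of the mitochondrial uniporter, had 40.9, 44.8 and 42.8 CPM in KO and 36.5 and 36.9 CPM in WT. Its groups did not overlap (unadjusted p = 0.125, limma). Mcub and Smdt1, further subunits of the uniporter, had log2 fold changes of 0.49 and 0.37 with overlap. Mcub was 0.05 without WT replicate 1 and 0.93 without WT replicate 2, and Smdt1 was 0.17 without KO replicate 2 and 0.60 without KO replicate 3. Calcineurin and NFAT genes were above 0 for 2 of 9 with a median of -0.10. Ppp3ca, a catalytic subunit of calcineurin, had 182, 174 and 223 CPM in KO and 250 and 225 CPM in WT. Every KO library of Ppp3ca was below both WT libraries (unadjusted p = 0.0898, limma). Groups did not overlap for 2 of 12 mitochondrial genes, above WT, and for 1 of 9 calcineurin and NFAT genes, below WT. Over all genes the shares were 7.85% above and 6.98% below. Ppp3cc (-0.23) and Rcan1 (-0.17), a calcineurin inhibitor gene, overlapped.

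**Figure D4:**
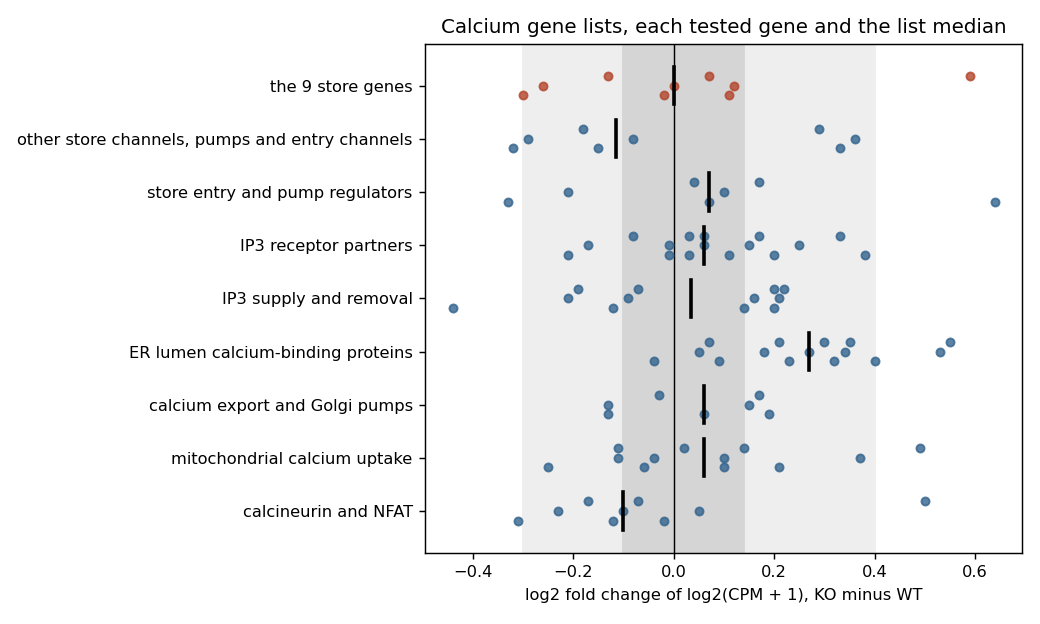
Log2 fold change of KO over WT on the log2(CPM + 1) scale for each tested gene (points) and the median (black line) of the 9 store genes and 8 calcium lists, over bands for the 5th to 95th and the 25th to 75th percentile of all genes tested (-0.30 to 0.40 and -0.10 to 0.14). The ER lumen list has its median at 0.27, and the other medians lie between -0.12 and 0.07.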

How the data were processed

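Per the submitters' processing notes, reads were processed with HISAT2 2.1.0, featureCounts and edgeR 3.20.1 on the mouse build mm10. The sources used here do not give the annotation release or strand setting. For each library the authors deposited a signal, CPM on an effective library size with 2 decimals kept. The authors' table also holds, for 53927 genes, a p-value and FDR, a score (the likelihood ratio), and log2 values for the fold change and mean level, quoted only as the authors' deposited table.

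Low values lie on steps of 1 read (100% of those under 100 CPM within 0.0055 CPM of a whole read), from which depth was read. Because the values are CPM and not counts, limma 3.58.1 in R 4.3.3 was used, with trend on log2(CPM + 1), genotype as the term, all 5 libraries, two-sided p-values and Benjamini-Hochberg adjustment over 14884 genes. The 3 reads taken as a floor cover counting error only. Ratios were compared by exact permutation. Exon lengths and coordinates come from GENCODE M21 (GRCm38), to which 53274 gene IDs matched, 50604 with their version. Exons of other genes that overlap a store gene cover at most 2.6% of its length. Steps were tested on simulated data, where limma recovered 44% of 50 genes changed 1.5-fold and 98% of 50 changed 2-fold, with 10 false calls. Every simulated gene had the same SD, 0.182 on the log2 scale, which real genes do not share. The simulation therefore does not give the power of the real comparison, where Dis3l2 itself did not pass. A gene that did not pass is not shown to be unchanged.

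The members and lists were chosen with earlier results of these data known. Named genes were the 9 members, Dis3l2, the other members of the same families, and the 3 genes with the smallest p in each list; others were named by likeness. Alternatives were 13 settings, given in the closing section.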

Additional observations from a re-analysis of the deposited data

How the results depend on the processing

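Depth limits Atp2a3, Atp2a1, Ryr1 and Mrln, which rest on few reads. None of the 9 store genes passed the adjusted threshold under any of the 13 alternatives (12 for Atp2a3, which a filter at 1 CPM removes), and Itpr1, Itpr3 and Stim2 kept their direction in each. Itpr3 lay between 0.34 and 0.83 and Itpr1 between -0.36 and -0.21 on the log2 scale. At an unadjusted p under 0.05 there were 0 of the 9 without WT replicate 1 or KO replicate 2, and 2 with the replicate block or without KO replicate 3, in place of 1. Atp2a2, at -0.02, became 0.01 with column sums or with the Xist term. Leaving out libraries moved Atp2a2 between -0.11 and 0.09, Atp2a3 between -0.59 and 0.08, Itpr2 between -0.05 and 0.18, Stim1 between -0.08 and 0.31, Ryr1 between -0.13 and 0.02, and Cracr2a between -0.51 and 0.09. The difference in the log2 ratio of Atp2a3 over Atp2a2 ran from -0.60 to 0.13 and that of Orai3 over Orai1 from -0.31 to 0.06.

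The number of all genes past the threshold, 1, was 0 with a pseudocount of 5, no filter, median-of-ratios scaling or the Xist term, and 0 to 8 when libraries were left out in turn. With the replicate block it was 390 (339 higher, 51 lower), with 1 residual degree of freedom, and Dis3l2 (-1.17, adjusted p = 0.0278), Rcn3 (0.74, adjusted p = 0.0454) and Smdt1 (0.60, adjusted p = 0.0457) then passed (limma), while Itpr3 (0.68, adjusted p = 0.0806) did not and Ryr1 became 0.02. Number 3 belongs to a KO library only, so the genotype difference in the block fit rests on the libraries numbered 1 and 2. Its log2 fold changes are therefore those found without KO replicate 3 (0.68 for Itpr3 and -1.17 for Dis3l2 in both). The 2 settings are not separate evidence. No label says what the numbers share. Deviations from the group means correlated across genes at 0.414 for the libraries numbered 1 and 0.537 for those numbered 2, and 2 pairs do not show that numbers pair the samples. Deviations of 2 WT libraries mirror each other. The values across numbers (-0.537 for WT replicate 1 with KO replicate 2, -0.414 for WT replicate 2 with KO replicate 1) therefore add nothing. Scaling to column sums moved the calls at an unadjusted p under 0.05 to 296 higher and 137 lower, against 224 and 189, and the median of all genes to 0.04.

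The median of other store and entry channels, -0.12, was -0.04 with a pseudocount of 5 and with no filter, and -0.17 to 0.00 without libraries in turn. That of IP3 supply, 0.04, was -0.05 with no filter, -0.07 with a filter at 1 CPM, and -0.12 to 0.06 without libraries. That of mitochondrial uptake, 0.06, was 0.09 with column sums, 0.02 with the block, and 0.02 to 0.07 without libraries. Without libraries in turn the ER lumen median ran from 0.16 to 0.40 and that of export and Golgi pumps from -0.08 to 0.34. The cause of these shifts was not tested.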
